A study of Mus musculus with 2 samples.

Results

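The genes described here are 9 enzymes that make asparagine, alanine, aspartate, proline, cysteine and glutamine, out of 55414 genes in the deposited expression table. They were taken by gene name and are Asns, Gpt2, Got1, Got2, Pycr1, Aldh18a1, Cth, Cbs and Glul. The list was chosen by function with the counts of both libraries known, several of its genes having been seen to be lower in the transfectant, so the levels and differences below are a description and carry no test. Of the 9, 8 had at least 50 counts in 1 of the libraries and Cbs did not.

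The cells were NHOS, a line of mouse osteosarcoma, which is a bone-forming tumour. RNA of a mock culture was compared with RNA of a culture transfected with IL10RB, the beta chain of the interleukin-10 receptor, which also serves receptors of related cytokines. Both cultures grew in DMEM with serum and the selection drug G418. The library of the transfected culture is called the transfectant, or the library with IL10RB. There was 1 library per group, so no SD, p-value or replicate check exists for any difference. The labels used here do not say what promoter drove IL10RB, what the mock cells received, or whether the transfectant was a clone or a pool. In a bulk library, fewer cells that use a gene and less RNA per cell cannot be told apart.

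These enzymes draw nitrogen and carbon from glutamate, glutamine and the intermediates of glycolysis and the citric acid cycle to build amino acids that a cell can make for itself. Transaminases move amino groups between glutamate and the keto acids, which gives alanine and aspartate. Asparagine synthetase adds an amide to aspartate, glutamate is reduced to proline in the mitochondrion, and the transsulfuration pair passes sulfur from homocysteine to cysteine. Genes such as Asns are known targets of ATF4, the transcription factor of the integrated stress response, which is translated when amino acids are scarce or the endoplasmic reticulum is stressed. ATF4 binds composite C/EBP-ATF response elements.

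The promoters of 3 of these genes are shown because each holds the core of such an element, TGATGNAA, within 250 bases before the gene start. The sequences are from RefSeq on build GRCm38.p6 and run 5′ to 3′ on the gene's own strand, which is the minus strand for all 3. Capitals mark the match. They cover chr6:7693210-7693459 for Asns, chr11:120643749-120643998 for Pycr1 and chr19:43524606-43524855 for Got1.
Asns: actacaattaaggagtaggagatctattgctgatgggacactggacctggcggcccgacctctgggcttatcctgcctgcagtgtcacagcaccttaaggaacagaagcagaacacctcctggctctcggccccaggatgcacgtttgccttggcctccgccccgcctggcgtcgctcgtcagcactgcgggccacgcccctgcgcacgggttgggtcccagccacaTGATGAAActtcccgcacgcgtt
Pycr1: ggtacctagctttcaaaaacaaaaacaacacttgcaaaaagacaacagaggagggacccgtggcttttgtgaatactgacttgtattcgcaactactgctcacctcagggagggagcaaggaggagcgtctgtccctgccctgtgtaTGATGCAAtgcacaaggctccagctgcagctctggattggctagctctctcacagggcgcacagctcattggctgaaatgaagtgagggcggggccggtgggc
Got1: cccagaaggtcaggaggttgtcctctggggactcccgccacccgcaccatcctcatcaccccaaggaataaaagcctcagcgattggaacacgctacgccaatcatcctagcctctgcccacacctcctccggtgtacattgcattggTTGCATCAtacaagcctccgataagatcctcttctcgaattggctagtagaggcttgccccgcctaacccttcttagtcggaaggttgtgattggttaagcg

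The match in Asns, TGATGAAA, begins 23 bases before the gene start and ends 16 bases before it. The Pycr1 match, TGATGCAA, lies 103 to 96 bases before the start. The Got1 match lies on the opposite strand, where it reads TTGCATCA in the printed orientation, from 102 to 95 bases before the start. Both strands were searched in windows from 250 bases before to 50 after each start. A window was found for 8 of the 9 genes, all but Cth. Gpt2, Got2, Aldh18a1, Glul and Cbs held no match within their windows. Of all 32851 windows in the RefSeq table, 3.97% held a match. Counted by gene, with a match in any window of the gene, the share was 4.51% of 27025 genes. It was 2.52% of the 9095 matched genes with at least 50 counts. Among 1045 other genes that were at least 2-fold lower in the transfectant library, 4.69% held one. A match describes the letters of these windows and does not show a bound site.

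**Figure D1:**
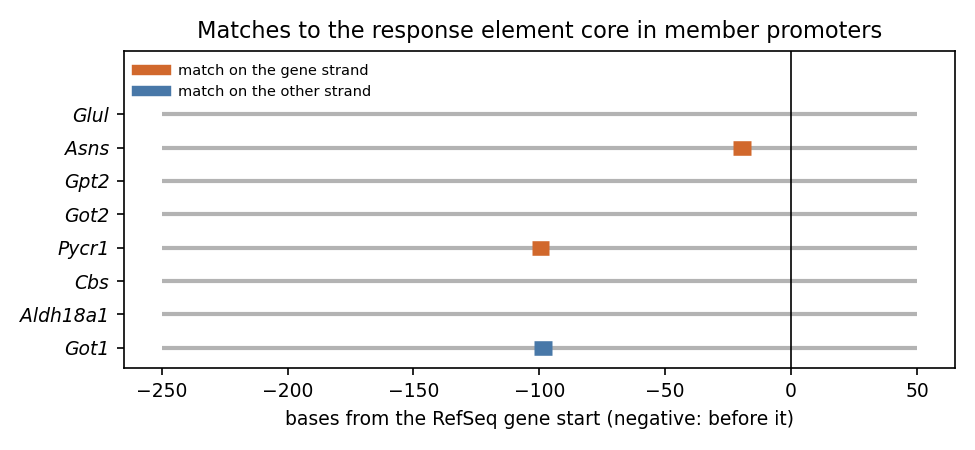
Position of matches to TGATGNAA in the windows of the 8 genes with a RefSeq promoter, in bases from the gene start, with each grey line running from 250 bases before to 50 after it. Asns, Pycr1 and Got1 each have 1 match, those of Pycr1 and Got1 at nearly the same distance from the start and on opposite strands.

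The libraries held 18766040 (mock) and 23898112 (transfectant) estimated counts. Genes with a count numbered 24857 in mock against 19691 in the transfectant, fewer in the deeper library, and the cause was not tested. Counts were scaled for library size (CPM), with 1 count worth 0.0542 CPM in mock against 0.0411 CPM with IL10RB. Il10rb was at 26.2 CPM in mock against 67.5 CPM with IL10RB. The species of the construct is not stated in the labels used here, so counts of the mouse gene may or may not measure it. Of 12 osteoblast lineage genes, 10 had at least 50 counts in 1 library, all but Dmp1 and Phex. Runx2 was at 49.2 TPM in mock and 76.4 TPM with IL10RB, the deposited level scaled for gene length and depth. Sp7 was at 78.4 and 71.2 TPM. Not all were level, since the ratios of transfectant over mock were 8.86 for Ibsp, 5.64 for Bglap, 5.07 for Bglap2 and 4.05 for Spp1. Mitochondrial genes took 0.521% and 0.600% of the counts. Ranges in brackets are exact 95% intervals of the counting error alone, computed as if each count were an independent molecule. Reads made without molecular identifiers are not independent molecules, so the ranges may be too narrow even for that error.

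Across the 9 enzymes, 5 were at least 2-fold lower in the transfectant library, namely Asns, Gpt2, Got1, Pycr1 and Cth, and 0 were at least 2-fold higher, Cbs being below the count minimum. Of all 11952 genes with at least 50 counts, 11.9% were at least 2-fold lower and 19.7% at least 2-fold higher. These shares also stand beside the counts of each pathway list below. Since the enzymes were listed with this difference known, nothing is read from their count. The median log2 fold of all 9, with 0.5 CPM added to each level, was -1.73, beside 0.07 over all genes past the count minimum. Summed over the 9, the deposited TPM was 1401 in mock against 457 with IL10RB, 3.07 times apart. Asns made up 39.2% of that sum in mock and 26.9% in the transfectant. Without Asns the sums were 851 and 334 TPM.

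**Figure D2:**
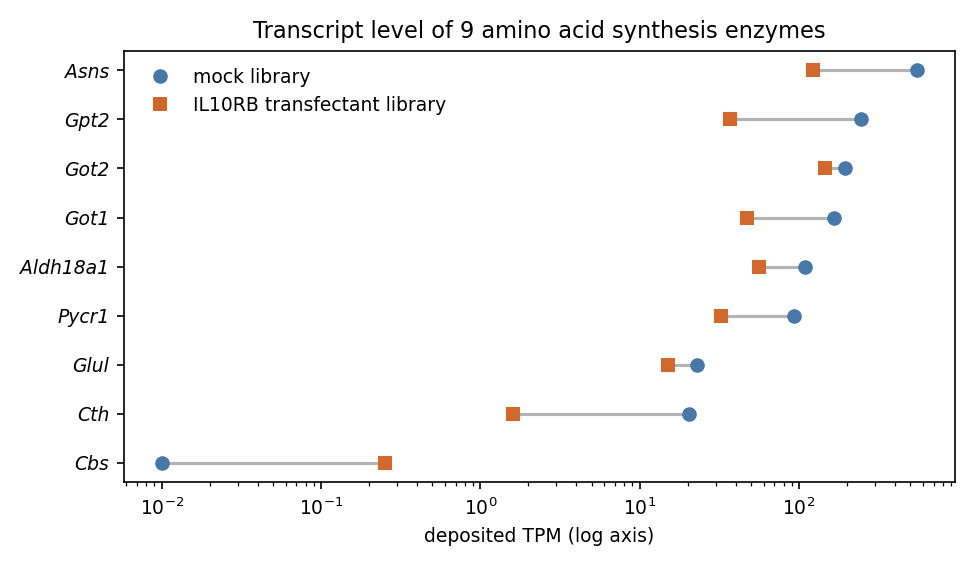
Deposited TPM of each enzyme gene in the mock library (circles) and the transfectant library (squares) on a log axis, ordered by the mock level. The squares lie to the left of the circles for 8 genes, among which Cth has the widest gap. For Cbs, at 0.010 and 0.252 TPM, the square lies to the right by a wider gap, which rests on 1 and 12 counts.

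TPM corrects for gene length and so allows levels of different genes to be ordered. In mock the order was Asns at 550 TPM, Gpt2 at 246, Got2 at 194, Got1 at 166, Aldh18a1 at 108, Pycr1 at 93.4, Glul at 22.8, Cth at 20.3 and Cbs at 0.010 TPM. In the transfectant Got2 came first at 145 TPM, followed by Asns at 123, Aldh18a1 at 55.8, Got1 at 47.3, Gpt2 at 36.6, Pycr1 at 32.5, Glul at 15.1, Cth at 1.59 and Cbs at 0.252 TPM. Gpt2 thus moved from the second place to the fifth, and Got2 from the third to the first. With 1 library each, it cannot be said which neighbours in these orders differ beyond the spread between cultures. Among all genes Asns ranked 321st by TPM in mock and 1619th in the transfectant, and Gpt2 ranked 763rd and 4205th.

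Asparagine synthetase, encoded by Asns, makes asparagine from aspartate with glutamine as the nitrogen donor. Its transcript had 15673 counts in mock against 4522 with IL10RB. These are 850 CPM (836 to 863) and 186 CPM (181 to 192), which put the transfectant 4.57-fold lower (4.42 to 4.72). Its log2 fold lay below that of all but 1.35% of genes past the count minimum. The gene (ENSMUSG00000029752.13) lies on the minus strand of chromosome 6 from 7675169 to 7693254 in the coordinates of the deposited table. The build of the table's coordinates is not given in the sources used here, and these are not to be joined with those of the promoters.

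Neither of the listed asparaginase genes was at least 2-fold lower in the transfectant, as Asns was. The asparaginase gene Aspg had 4 counts in mock against 419 with IL10RB, 79.5-fold higher with a wide interval (30.8 to 293). The second asparaginase gene, Asrgl1, had 990 and 1082 counts, a ratio of 0.829 (0.760 to 0.905). Of 8 genes for asparagine breakdown and the urea cycle, 3 were past the count minimum, 1 at least 2-fold higher and 0 lower. With 19.7% higher and 11.9% lower over all genes, a count of 3 genes says little. Asl, the argininosuccinate lyase, stood at a ratio of 1.09 (1.01 to 1.19), and Ass1, which joins aspartate to citrulline, had 2 and 5 counts.

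The 3 genes nearest to Asns in level across the libraries were Creld2, Nop56 and Hyou1, out of 8929 others with a mean of at least 10 CPM. Nearness was the distance over the log2 CPM in the 2 libraries, at 0.05 for Creld2, 0.22 for Nop56 and 0.26 for Hyou1. Creld2 was at 858 CPM in mock against 180 CPM with IL10RB, 4.77-fold lower. A likeness over 2 libraries rests on 2 values per gene.

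Gpt2 encodes the mitochondrial alanine transaminase, which passes an amino group between glutamate and pyruvate. It had 11571 counts in mock against 2326 with IL10RB. Its level was 627 CPM (616 to 639) against 95.7 CPM (91.8 to 99.7), 6.56-fold lower (6.27 to 6.86), and 0.594% of genes had a lower log2 fold. The deposited table places it on chromosome 8, plus strand, from 86219205 to 86254189. Its cytosolic counterpart Gpt had 41 counts in mock against 49 with IL10RB, below the count minimum in both. Gpt2 therefore held 99.3% of the summed TPM of the pair in mock and 96.2% in the transfectant.

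Got1 and Got2 encode the cytosolic and the mitochondrial aspartate transaminase, which together with malate dehydrogenases and carriers run the malate-aspartate shuttle. Got1 had 4923 counts in mock against 1863 with IL10RB, at 267 CPM (259 to 274) and 76.6 CPM (73.2 to 80.2), 3.48-fold lower (3.30 to 3.67). Got2 had 7242 and 7053 counts, at 393 CPM (384 to 402) and 290 CPM (283 to 297), 1.35-fold lower (1.31 to 1.40). The counting intervals of these differences do not overlap. The ratio of Got1 to Got2 TPM was 0.854 in mock against 0.327 with IL10RB, and the share of Got1 in the summed TPM of the pair was 46.1% and 24.6%. The estimated counts of Got2 are fractional, which happens where a read matches more than 1 gene.

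**Figure D3:**
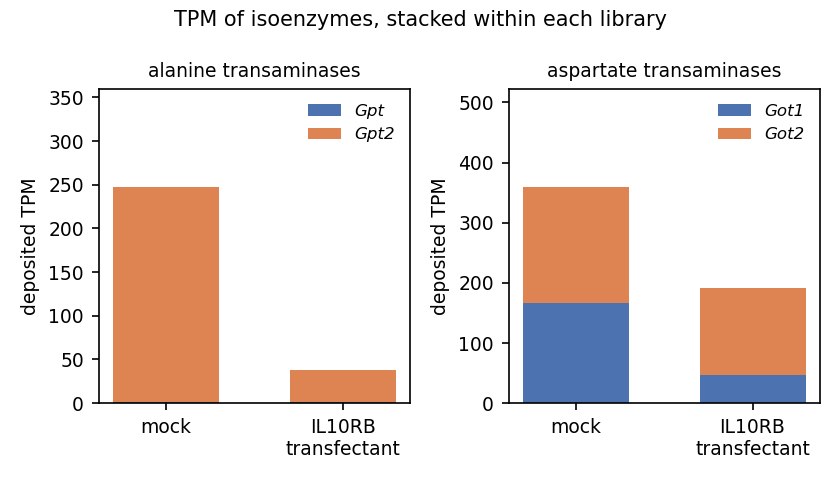
Deposited TPM of the cytosolic and mitochondrial alanine and aspartate transaminases, stacked within the mock and the transfectant library. Gpt is too low to be seen beneath Gpt2, and Got1 takes 46.1% of its pair in mock and 24.6% in the transfectant.

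The other listed genes of the malate-aspartate shuttle had ratios above 1, most of them within 2-fold. Of the 5 besides Got1 and Got2, 1 was at least 2-fold higher and 0 lower, and the median log2 fold was 0.59. Over all genes past the count minimum, 19.7% were higher and 11.9% lower, so these counts are near the shares of all genes. The oxoglutarate carrier gene Slc25a11 was 2.99-fold higher (2.78 to 3.21), at 53.1 CPM in mock against 158 CPM with IL10RB. The aspartate-glutamate carrier Slc25a13 stood at a ratio of 2.01 (1.84 to 2.19), just within 2-fold once 0.5 CPM is added, and its relative Slc25a12 at 1.51 (1.40 to 1.64). The malate dehydrogenase genes Mdh1 and Mdh2 were at ratios of 1.35 (1.31 to 1.39) and 1.12 (1.09 to 1.14).

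Among 13 aminotransferase genes other than Gpt2, Got1 and Got2, 7 were past the count minimum, 3 of them at least 2-fold lower and 1 at least 2-fold higher, with a median log2 fold of -0.89. The lower ones were the branched-chain transaminases and a kynurenine aminotransferase. Bcat1, the cytosolic branched-chain enzyme, was at 447 CPM in mock against 97.2 CPM with IL10RB, a ratio of 0.217 (0.208 to 0.228). Bcat2, the mitochondrial one, was at 96.1 and 32.0 CPM, a ratio of 0.333 (0.306 to 0.363). Kyat3 had 922 and 296 counts, a ratio of 0.244. The higher gene was Abat, which breaks down the transmitter GABA, at 43.9 CPM in mock against 245 CPM with IL10RB, 5.58-fold higher (5.19 to 6.01). Psat1, the transaminase of serine synthesis, stood within 2-fold at a ratio of 0.677 (0.660 to 0.695).

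Proline is made from glutamate by Aldh18a1, the pyrroline-5-carboxylate synthase, followed by a pyrroline-5-carboxylate reductase such as Pycr1. Aldh18a1 had 5676 counts in mock against 3916 with IL10RB, at 308 CPM (300 to 316) and 161 CPM (156 to 166). It was 1.91-fold lower (1.83 to 1.99), short of 2-fold, and 1.94-fold lower in the deposited TPM. Pycr1 had 2415 and 952 counts, at 131 CPM (126 to 136) and 39.2 CPM (36.7 to 41.7), and was 3.34-fold lower (3.10 to 3.61). In the deposited TPM the difference in Pycr1 was 2.87-fold. A processed pseudogene of 522 bases on the same strand, Gm15801, lies within Aldh18a1 and had estimated counts of 399.91 in mock against 211.62 with IL10RB. The estimated counts of Aldh18a1 itself are whole numbers in both libraries.

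Pycrl, also called Pycr3, is a related reductase and differed from Pycr1 in direction. It was at 48.8 TPM in mock against 85.1 TPM with IL10RB, and 1.77-fold higher in CPM (1.63 to 1.92).

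Other genes of proline and ornithine metabolism were mostly within 2-fold. Of 6 besides Aldh18a1 and Pycr1, 5 were past the count minimum, 0 at least 2-fold lower and 1 at least 2-fold higher, with a median log2 fold of 0.36. The higher gene was Aldh4a1, which oxidises pyrroline-5-carboxylate back to glutamate, at 203 counts in mock against 1384 with IL10RB, 5.17-fold higher (4.46 to 6.03). Prodh, the proline dehydrogenase, had 34 and 61 counts. Oat, the ornithine aminotransferase, was at a ratio of 0.955 (0.921 to 0.991). Odc1, which opens polyamine synthesis from ornithine, was at 0.502 (0.479 to 0.527), just short of 2-fold lower on the log2 scale with 0.5 CPM added.

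Cysteine is made from homocysteine and serine by Cbs, which joins them to cystathionine, and Cth, which splits cystathionine to cysteine. Cth had 458 counts in mock against 47 with IL10RB, at 24.8 CPM (22.6 to 27.2) and 1.93 CPM (1.42 to 2.57). It was 12.8-fold lower (9.50 to 17.7), the largest of the differences in the lower direction among the 9 enzymes, and 0.301% of genes had a lower log2 fold. A gene of type TEC on the same strand, Gm43314, lies within Cth and had 20 counts in mock against 0 with IL10RB. Cbs had 1 count in mock against 12 with IL10RB, a ratio of 9.11 with an interval from 1.35 to 389. The deposited TPM of Cbs was 0.010 and 0.252. Both levels of Cbs are so low that little can be said beyond its near absence from either library.

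Genes that use cysteine and sulfide were level or higher where Cth was lower. Of 8 genes for sulfur use besides Cth and Cbs, 6 were past the count minimum, 3 at least 2-fold higher and 0 lower. The shares over all genes were 19.7% and 11.9%. The median log2 fold of the 6 was 1.20. Csad, the decarboxylase of taurine synthesis, was at 8.51 CPM in mock against 80.8 CPM with IL10RB, 9.50-fold higher (8.07 to 11.2). The sulfide oxidase gene Sqor had 51 and 345 counts, 5.13-fold higher (3.82 to 7.03). Suox, the sulfite oxidase, had 37 and 178 counts, 3.65-fold higher (2.55 to 5.35). Cdo1, the cysteine dioxygenase that feeds Csad, had 4 counts in each library.

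The methionine cycle, which supplies homocysteine, was mixed. Of its 11 genes 7 were past the count minimum, 1 at least 2-fold higher, 1 lower and 5 within, and the median log2 fold was 0.03. Mat2a, which makes S-adenosylmethionine, was 2.79-fold higher (2.66 to 2.93), at 115 CPM in mock against 320 CPM with IL10RB. Mtrr, which keeps methionine synthase active, had 1073 and 511 counts, a ratio of 0.361 (0.325 to 0.402). Methionine synthase itself, Mtr, had 177 and 377 counts, and Ahcy, which releases homocysteine, was at a ratio of 1.02 (0.849 to 1.24).

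Glul encodes glutamine synthetase, which joins ammonia to glutamate. It had 404 counts in mock against 418 with IL10RB, at 21.9 CPM (19.8 to 24.1) and 17.2 CPM (15.6 to 18.9), and was 1.27-fold lower (1.11 to 1.46). The deposited TPM differed by 1.51-fold, at 22.8 and 15.1. Its counts are fractional, and the table places the protein coding gene Teddm2 across 285 bases of it on the other strand, with estimated counts of 11.01 and 8.02. Gls2, which encodes a glutaminase that splits glutamine to glutamate, had 125 and 32 counts, a ratio of 0.194 (0.127 to 0.288). Glud1, the glutamate dehydrogenase, was at a ratio of 0.806 (0.768 to 0.845).

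Asns belongs to the enzymes that take nitrogen from the amide of glutamine. Of 9 other such genes, 8 were past the count minimum, 3 at least 2-fold lower, 1 higher and 4 within, and the median log2 fold was -0.75. Cad, which opens pyrimidine synthesis, had 1921 counts in mock against 821 with IL10RB, a ratio of 0.324 (0.299 to 0.352). Gfpt1, the entry to the hexosamine pathway, was at a ratio of 0.425 (0.388 to 0.465), and the CTP synthase gene Ctps at 0.458 (0.439 to 0.476). The NAD synthetase gene Nadsyn1 had 18 and 96 counts, 4.05-fold higher (2.43 to 7.12). The difference in Asns, at a ratio of 0.219 (0.212 to 0.226), was the largest of the 10 in the lower direction.

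**Figure D4:**
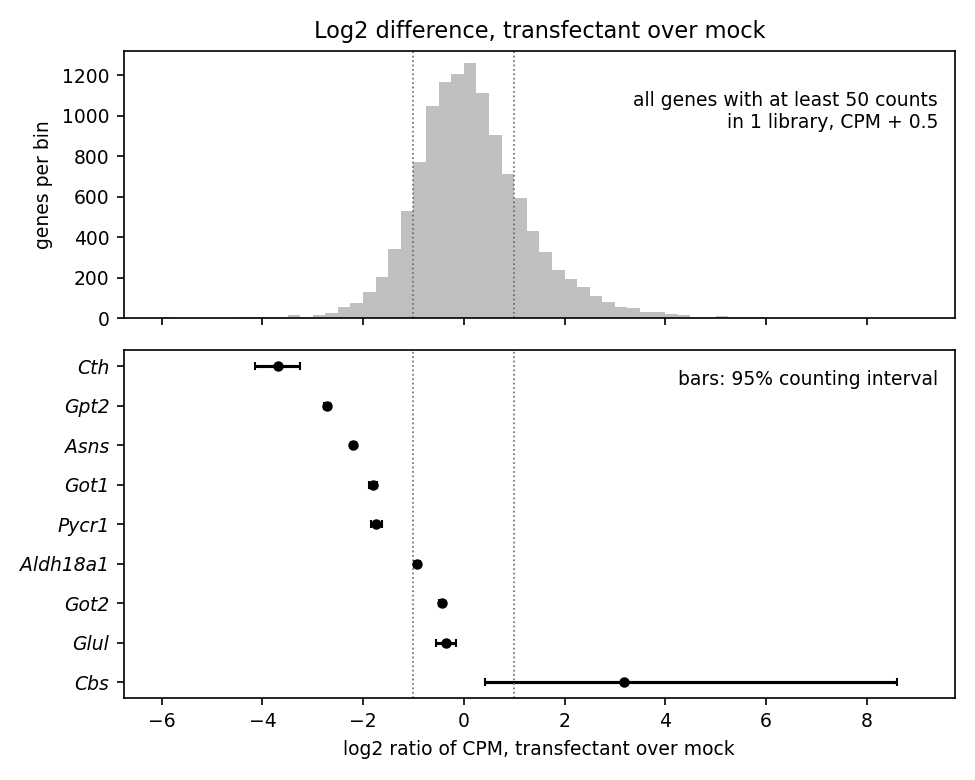
Histogram of the log2 fold of all 11952 genes past the count minimum (top) and log2 ratio of CPM of each enzyme with its 95% counting interval (bottom), transfectant over mock, with dotted lines at 2-fold. Asns, Gpt2, Got1, Pycr1 and Cth lie left of the lower line with their whole intervals, Aldh18a1 lies just inside it, and the interval of Cbs is wide because it had 1 count in mock.

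Genes of the integrated stress response, listed because ATF4 is known to act on Asns, were examined beside the enzymes. At least 2-fold lower levels were found for 9 of the 13 genes and 2-fold higher ones for 0. Over all genes past the count minimum, 11.9% were lower and 19.7% higher. The median log2 fold of the 13 was -1.72, beside 0.07 over all genes. Atf4 itself was at 456 CPM in mock against 186 CPM with IL10RB, a ratio of 0.408 (0.394 to 0.424). Its partner gene Cebpb was at a ratio of 0.193 (0.183 to 0.202), and Chac1, whose product degrades glutathione, at 0.224 (0.204 to 0.246). Sesn2 differed by less than 2-fold, with a ratio of 0.901 (0.830 to 0.979), as did Nupr1, with 0.790 (0.761 to 0.819). This list was chosen with earlier results of these libraries known, so nothing is read from its count. Whether ATF4 had a part in the levels of the enzymes was not tested.

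**Figure D5:**
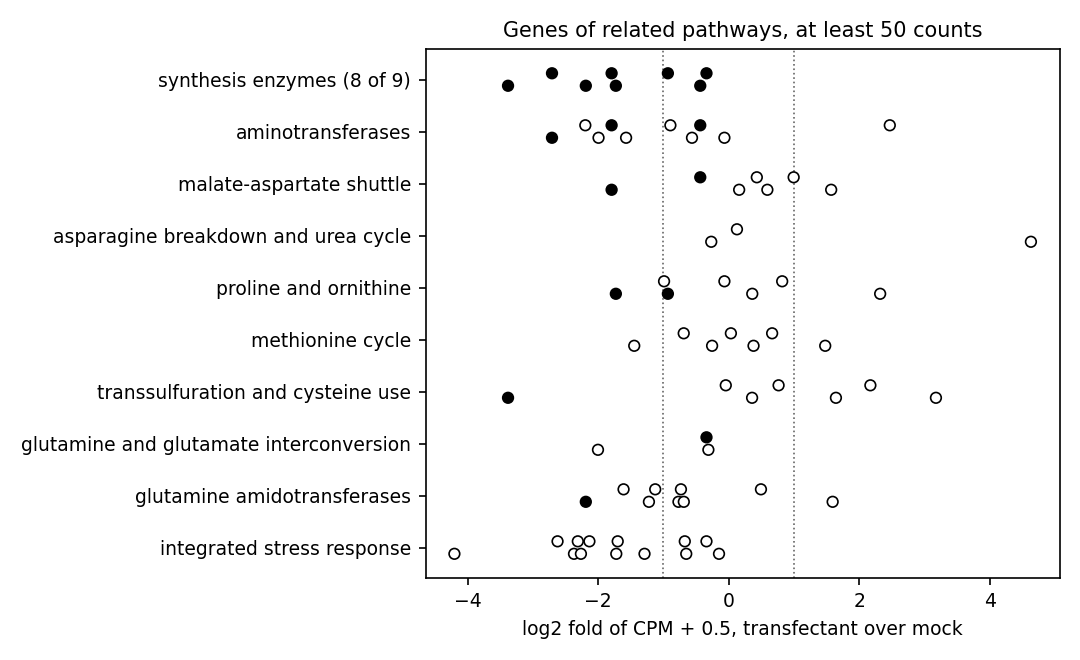
Log2 fold of CPM plus 0.5, transfectant over mock, of each gene with at least 50 counts in 1 library, by pathway list, with the synthesis enzymes as filled points, other genes as open points and dotted lines at 2-fold. Stress response genes lie below 0, while genes for sulfur use other than Cth, and shuttle genes other than Got1 and Got2, lie mostly above it.

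The chromosomes that carry the enzymes were compared as a whole. Gpt2 and Got2 lie on chromosome 8, where the 653 other genes past the count minimum had a median log2 fold of -0.16 and 18.8% were at least 2-fold lower. Cth lies on chromosome 3, with a median of -0.30 over 579 genes and 19.0% at least 2-fold lower. Got1 and Aldh18a1 lie on chromosome 19, with a median of 0.10 over 434 genes and 13.1% at least 2-fold lower. For chromosome 6 (Asns) the median was 0.02 with 10.9% lower, and for chromosome 11 (Pycr1) it was 0.24 with 8.72% lower. Chromosome 1 (Glul) had a median of -0.04 with 13.5% lower, and chromosome 17 (Cbs) one of 0.08 with 11.7% lower. Gains or losses of single regions were not tested.

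Markers of other cell types differed between the libraries as well. Of 8 fibroblast markers 7 were past the count minimum, each at least 2-fold higher with IL10RB. The 8 summed to 221 TPM in mock against 2244 TPM with IL10RB, of which S100a4 made up 178 and 2050 TPM. Leukocyte markers summed to 5.25 and 39.5 TPM. Of these 10 genes 3 were past the count minimum, 1 at least 2-fold lower and 2 higher. The higher ones were Lyz2, at 5 and 626 counts, and Cd68, at 12 and 150, and the lower one was Csf1r, at 57 and 24. Below the count minimum, Fcer1g had 6 and 36 counts, the pan-leukocyte gene Ptprc had 27 and 0, and Tyrobp and Itgam were at 0 in both. Of 7 epithelial markers only Krt14 was past the count minimum, and it was at least 2-fold lower. The summed epithelial markers were at 34.4 and 1.09 TPM, of which Krt14 made up 34.2 and 0.324 TPM. None was past the minimum and 2-fold higher, and Epcam and Krt8 were at 0 in both. Endothelial markers summed to 16.9 and 38.5 TPM. Of these 7 genes 2 were past the count minimum, each at least 2-fold higher, Flt1 at 254 and 949 counts and Egfl7 at 137 and 394. Kdr had 20 and 0 counts, and Cdh5 and Tie1 were at 0 in both. Of 12 osteoblast lineage genes 10 were past the count minimum, 4 at least 2-fold higher and 0 lower. The shares over all genes past the minimum were 19.7% higher and 11.9% lower. The part of these differences in the levels of the synthesis enzymes was not tested.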

How the data were processed

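RNA from 1 mock and 1 IL10RB-transfected NHOS culture was made into cDNA with a SMART-Seq v4 kit, per the labels' protocols. The submitters' processing notes name DRAGEN without version or role; the aligner, genome build and annotation are each not given in sources used here. Per gene, the deposited table holds estimated counts, not normalised, and TPM values that the authors scaled for length and depth; gene length is in bases per the file headers. Strand was not stated.

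Estimated counts were rounded and scaled with TMM factors of 0.983 and 1.02 (edgeR 4.0.16, R 4.3.3); DESeq2 1.42.0 gave alternative size factors. Neither ran a test. Log2 folds use CPM plus 0.5, and a call needs 50 counts in 1 library and a 2-fold difference. Folds and ratios in the text carry no pseudocount. Their intervals are exact conditional (Clopper-Pearson) and those of levels exact Poisson. Python 3.11.15, numpy 2.4.6, pandas 2.3.3, scipy 1.17.1 and matplotlib 3.10.9 were used. The procedure was tested on simulated counts with counting error alone, which cannot show how it behaves under spread between cultures.

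The enzymes and lists were chosen with earlier results of these data known. Named genes were the 9 enzymes, genes of the lists, the 3 genes nearest to Asns with a mean of at least 10 CPM that are not predicted models, and overlapping genes. Symbols were matched to the table, Pycr3 through its RefSeq synonym Pycrl. A planned comparison of protein sequences was not made, and not every gene first listed is reported here.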

Additional observations from a re-analysis of the deposited data

How the results depend on the processing

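Of the 9 enzymes, Asns, Gpt2, Got1, Pycr1 and Cth were at least 2-fold lower under every scaling, pseudocount, count minimum and gene set tried, with the deposited TPM, and when the whole counting interval had to lie past the fold. Upper quartile scaling and a fold of 1.5 added Aldh18a1, giving 6, and a fold of 4 left 3, Asns, Gpt2 and Cth, as the threshold itself sets. The median log2 fold of the enzymes was -1.51 in the deposited TPM against -1.73, where the cause was not tested, and lay between -1.85 and -1.68 under the scalings and other pseudocounts. Upper quartile scaling moved the median of all genes from 0.07 to -0.04. Over all genes, a fold of 1.5 gave 3666 higher and 2853 lower, a fold of 4 gave 772 and 219, and no count minimum gave 2316 lower. The log2 fold of Cbs ran from 0.28 to 1.94 with the pseudocount and that of Cth from -3.62 to -2.77. No paired analysis was possible because there was only 1 library of each kind. Cbs had 1 count in mock and 12 with IL10RB, below the count minimum in both libraries, so little can be said of its difference.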
